A study of Homo sapiens with 18 samples.

Results

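The MHC class I antigen presentation genes HLA-B, HLA-C, HLA-E, HLA-F, B2M, TAP1, TAP2, TAPBP and ERAP1 were followed in triple-negative breast cancer (TNBC) cells after silencing of ASAP1. These 9 genes were chosen by symbol from the 19289 genes of a TempO-Seq table, with their normalized counts and Log2 FC in these same libraries already known and with no threshold, so their values are a description. They were read by 11 of the 21111 probes, because TAP2 and TAPBP have a pair of probes each. TempO-Seq ligates a pair of detector oligonucleotides on each target RNA and counts the ligated product, so that a value stands for a short part of a transcript. The cells were BT549, Hs578T and SUM149PT, established lines grown from human breast tumors, each line being a single model of the disease. Each line was transfected with 50 nM siASAP1, a pool of siRNAs against the Arf GTPase-activating protein ASAP1, or with siCtrl, a pool of kinase siRNAs that served as the negative control. Both treatments were collected after 72 h as 3 libraries per line, 18 in all. The methods describe biological triplicates in wells of a plate, and the p-values below measure the spread between these wells.

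Class I molecules display peptides from inside the cell to CD8+ T cells. A heavy chain (such as the highly variable HLA-B and HLA-C, or the less variable HLA-E, HLA-F and HLA-G) folds around the light chain beta-2 microglobulin, the product of B2M. TAP1 and TAP2 form the transporter that carries proteasome products into the endoplasmic reticulum, tapasin (TAPBP) holds the empty heavy chain at the transporter, and the aminopeptidase ERAP1 trims the peptides to length. Interferons induce most of these genes through IRF factors and NLRC5, and tumor cells that lose them become less visible to T cells.

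All of these genes are annotated as protein coding (GENCODE release 29, GRCh38). HLA-F (chr6:29722775-29738528), HLA-E (chr6:30489467-30494205), HLA-C (chr6:31268749-31272130), HLA-B (chr6:31269491-31357188), TAP2 (chr6:32821833-32838780), TAP1 (chr6:32845209-32853978) and TAPBP (chr6:33299694-33314387) lie in the MHC region of chromosome 6. B2M (chr15:44711487-44718877) and ERAP1 (chr5:96760810-96808100) lie outside it. The annotated span of HLA-B runs across HLA-C, the heavy chain genes are close copies of each other, and the table lists probes without their sequence, so it was not determined which exon or allele each HLA probe reads, and reads may be shared between the heavy chain genes.

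The promoters are shown because interferon-responsive elements are what these genes are known to have in common. RefSeq promoters (GRCh38.p14) were matched for 8 of the 9 genes, HLA-E being without an entry, and the 250 bases before each start were searched on both strands for the IRF core AANNGAAA and for CCAATCAG, a CCAAT box. In the window listed first for each gene, the IRF core was found in 7 of 8 members against 20.6% of 27305 promoters, and CCAATCAG in 4 of 8 against 3.98%. Matches are in capitals, adjacent copies running together, and each sequence is written along its gene's strand, where a match on the other strand reads as the reverse complement.
HLA-B, chr6:31357180-31357429, minus strand: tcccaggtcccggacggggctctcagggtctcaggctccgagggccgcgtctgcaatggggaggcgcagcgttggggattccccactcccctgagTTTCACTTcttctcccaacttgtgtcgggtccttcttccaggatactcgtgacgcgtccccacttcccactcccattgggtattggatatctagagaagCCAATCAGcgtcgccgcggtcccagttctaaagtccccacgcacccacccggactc
HLA-C, chr6:31272093-31272342, minus strand: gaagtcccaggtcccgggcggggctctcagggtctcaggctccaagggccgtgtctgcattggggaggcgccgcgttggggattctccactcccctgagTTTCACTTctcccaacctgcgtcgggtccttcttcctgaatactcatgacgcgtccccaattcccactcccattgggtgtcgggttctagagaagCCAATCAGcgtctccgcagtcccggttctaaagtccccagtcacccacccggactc
B2M, chr15:44711267-44711516, plus strand: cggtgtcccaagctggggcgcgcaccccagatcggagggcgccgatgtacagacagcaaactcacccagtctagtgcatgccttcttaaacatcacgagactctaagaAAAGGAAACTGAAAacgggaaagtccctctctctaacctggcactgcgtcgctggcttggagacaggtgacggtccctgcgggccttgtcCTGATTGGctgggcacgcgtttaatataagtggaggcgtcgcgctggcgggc
TAP1, chr6:32853705-32853954, minus strand: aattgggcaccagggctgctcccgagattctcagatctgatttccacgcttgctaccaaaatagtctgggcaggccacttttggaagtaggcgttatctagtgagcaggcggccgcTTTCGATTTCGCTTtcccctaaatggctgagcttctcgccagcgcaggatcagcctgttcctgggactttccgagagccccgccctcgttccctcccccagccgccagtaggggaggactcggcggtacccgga
TAPBP, chr6:33314079-33314328, minus strand: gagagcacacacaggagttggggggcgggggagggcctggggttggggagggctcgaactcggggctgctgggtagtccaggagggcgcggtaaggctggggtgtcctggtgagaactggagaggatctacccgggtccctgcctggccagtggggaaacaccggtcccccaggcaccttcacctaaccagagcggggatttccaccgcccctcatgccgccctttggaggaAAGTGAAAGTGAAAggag
ERAP1, chr5:96807946-96808195, minus strand: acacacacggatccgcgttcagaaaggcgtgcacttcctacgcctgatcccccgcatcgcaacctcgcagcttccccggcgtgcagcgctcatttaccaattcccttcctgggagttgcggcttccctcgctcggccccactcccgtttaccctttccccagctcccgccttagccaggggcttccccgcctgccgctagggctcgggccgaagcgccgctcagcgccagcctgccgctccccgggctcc
ERAP1, second window, chr5:96814146-96814395, minus strand: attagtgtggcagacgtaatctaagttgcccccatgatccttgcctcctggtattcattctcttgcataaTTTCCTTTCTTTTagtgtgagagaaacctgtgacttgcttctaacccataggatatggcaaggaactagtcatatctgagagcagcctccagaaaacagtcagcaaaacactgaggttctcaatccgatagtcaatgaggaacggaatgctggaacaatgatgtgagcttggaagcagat
The windows of HLA-B and HLA-C hold the same pair of matches, B2M holds both kinds in other places, and TAP1 and TAPBP hold tandem copies of the core. In the window listed first for ERAP1 neither string was found, while its second window holds 2 overlapping copies of the IRF core and no CCAATCAG. The second window of TAP1 holds neither. A match is a description of letters, and no binding was measured.

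The libraries held 4.634 to 12.49 M reads each (median 6.632 M). Values are given as normalized counts, the reads of a probe scaled by the size factor of its library, and differences were taken on the scale log2(normalized count + 1), which understates the change of low probes. ASAP1 itself was read at normalized counts of 1107, 967 and 944 in the siCtrl libraries of BT549 against 367, 730 and 783 after siASAP1, and at 1641, 1414 and 2697 in Hs578T against 782, 825 and 1261. In SUM149PT it was read at 1087, 189 and 1314 in siCtrl and at 282, 468 and 184 after siASAP1. The library labelled SUM149PT siCtrl replicate 2 therefore goes against its label, and single Log2 FC values below whose call or sign changes without it are given both ways. Epithelial markers (5 genes) summed to normalized counts of 27579 to 55164 in SUM149PT and to 57.4 to 481.8 in the other lines. Class II genes reached at most 17 reads in a probe and leukocyte markers at most 8 in any library, so the defining genes of professional antigen-presenting cells were at or near 0. Of the mesenchymal markers, 3 genes passed the filter over the 18 libraries. The FN1 probes had a Log2 FC of 1.04 ± 0.26 (SE; FN1_27231, limma adjusted p = 0.048), 0.83 ± 0.26 (FN1_2459, adjusted p = 0.11) and 0.73 ± 0.19 (FN1_13666, adjusted p = 0.056), CDH2 of 0.34 ± 0.20 (adjusted p = 0.41) and the VIM probes of 0.01 ± 0.46 and -0.32 ± 0.30 (adjusted p = 1 and 0.66). In SUM149PT VIM_18185 lay lower in all siASAP1 libraries (-1.48 ± 0.36, adjusted p = 0.33; -1.67 ± 0.31 and 0.052 without siCtrl replicate 2). FN1 went the other way in SUM149PT without siCtrl replicate 2. There FN1_27231 was 2.26 ± 0.33 and FN1_13666 1.68 ± 0.31 (both adjusted p = 0.049). FN1_2459 was 1.21 ± 0.58 (adjusted p = 0.23) and CDH2 -0.04 ± 0.34 (adjusted p = 0.96). FN1_27231 was not called over the lines without SUM149PT siCtrl replicate 2 (0.92 ± 0.25, adjusted p = 0.075). The part of these markers in the results below was not tested.

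Of the 11 member probes, 9 passed the filter of a mean normalized count of 10. HLA-F had 6 reads in all, in 2 of the 18 libraries, and the second TAP2 probe (TAP2_22949) had 37 reads with at most 13 in a library, so neither is compared below. HLA-F had 0 reads in the other 16 libraries, and a count of 0 allows up to 3 reads. Over all libraries the other probes ranged from 617 reads for TAP1 (5 to 95 in a library) to 72391 for B2M (129 to 22303). Levels of different genes are not compared with each other, since each probe has its own efficiency.

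**Figure D1:**
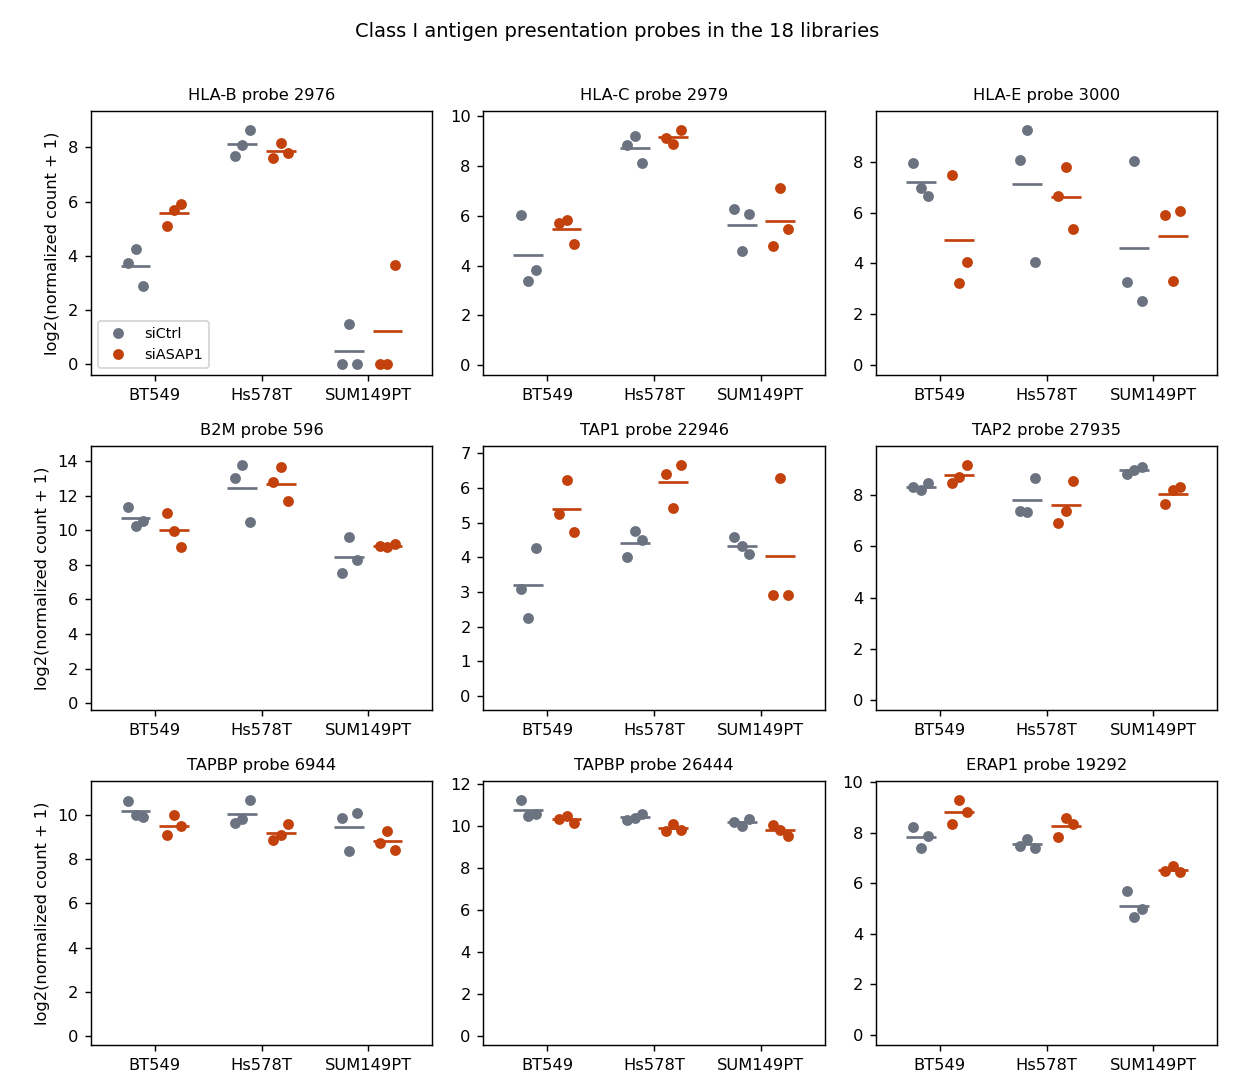
Each point is a library, plotted as log2(normalized count + 1) for the 9 member probes that passed the filter, by cell line (horizontal axis), with siCtrl in grey and siASAP1 in orange. Short lines are the means of 3 libraries. HLA-B and HLA-C stand highest in Hs578T, HLA-B is at or near 0 in 5 of the 6 SUM149PT libraries (the other is siASAP1 replicate 3, at a normalized count of 11.8), and the siASAP1 points of ERAP1 lie above the siCtrl points in all 3 lines.

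The control cells differed first in their heavy chains. HLA-B, a classical heavy chain, was read at normalized counts of 205, 273 and 399 in the siCtrl libraries of Hs578T, at 12.5, 18.2 and 6.31 in BT549, and at 0, 1.82 and 0 in SUM149PT. The order Hs578T, BT549, SUM149PT held without overlap. The Log2 FC was 4.51 ± 0.68 (SE) for Hs578T over BT549 and 3.13 ± 0.68 for BT549 over SUM149PT, 3 libraries in each. The SUM149PT libraries held 2 HLA-B reads in all against 983 in Hs578T, a ratio of pooled depth-scaled reads of 347.6 with a 95% counting interval from 95.96 to 2874. This interval covers counting error only. HLA-B entered the comparison through its level in the other lines, so a difference was bound to appear.

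HLA-C, the other classical heavy chain in the group, was read at 457, 589 and 281 in Hs578T siCtrl libraries, at 63.6, 9.43 and 13.3 in BT549 and at 77.2, 22.8 and 65.5 in SUM149PT. Hs578T stood above both other lines by a Log2 FC of 4.31 ± 0.76 over BT549 and 3.09 ± 0.76 over SUM149PT. The call over SUM149PT was lost without Hs578T siCtrl replicate 1 (3.03 ± 0.92) or replicate 2 (2.85 ± 0.90). BT549 and SUM149PT overlapped (Log2 FC -1.23 ± 0.76). SUM149PT therefore had next to no HLA-B signal while its HLA-C signal lay within or above the range of BT549.

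HLA-E, which presents signal peptides of other class I chains to NK cells, spread widely within each line. In siCtrl libraries it was read at 245, 125 and 100 in BT549, at 270, 611 and 15.8 in Hs578T and at 8.58, 260 and 4.80 in SUM149PT. All 3 lines overlapped. Without SUM149PT siCtrl replicate 2, which holds the value of 260, HLA-E was called lower in SUM149PT than in both other lines (Log2 FC 4.24 ± 1.28 for Hs578T and 4.30 ± 1.28 for BT549 over SUM149PT).

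B2M, the shared light chain, was read at 8432, 13899 and 1427 in Hs578T, at 2531, 1215 and 1503 in BT549 and at 185, 777 and 307 in SUM149PT. SUM149PT was below every library of the other lines, and Hs578T and BT549 overlapped through the Hs578T library at 1427. The Log2 FC was 3.96 ± 0.81 for Hs578T over SUM149PT, 2.23 ± 0.81 for BT549 over SUM149PT and 1.73 ± 0.81 for Hs578T over BT549. Without Hs578T siCtrl replicate 3, the library at 1427, B2M was also called higher in Hs578T than in BT549 (2.70 ± 0.61) and in BT549 than in SUM149PT (2.23 ± 0.55).

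ERAP1 separated SUM149PT from both mesenchymal-like lines. It was read at 51.5, 24.6 and 30.4 in SUM149PT, at 176, 217 and 167 in Hs578T and at 303, 170 and 237 in BT549. The Log2 FC over SUM149PT was 2.42 ± 0.44 for Hs578T and 2.73 ± 0.44 for BT549, whereas Hs578T and BT549 overlapped (-0.31 ± 0.44). The trimming enzyme and the light chain were thus lowest in the same line.

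The transporter and tapasin differed less. TAP2 had the opposite order, with 449, 510 and 556 in SUM149PT, 319, 291 and 358 in BT549 and 165, 163 and 405 in Hs578T (Log2 FC -1.18 ± 0.40 for Hs578T over SUM149PT, called under 1 of the alternatives, without Hs578T siCtrl replicate 3, at -1.61 ± 0.32). TAP1 overlapped between all pairs of lines, from 3.77 to 26.1. The TAPBP probes were within a Log2 FC of 0.75 of 0 in each pair of lines, and TAPBP_26444 alone separated a pair, BT549 (2436, 1418 and 1524) lying above SUM149PT (1183, 1028 and 1287).

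Between the control libraries, with limits of 0.05 on the adjusted p and of 1 on the absolute Log2 FC, 2 of 9 member probes (HLA-B, HLA-C) were called higher in Hs578T than in BT549, where 7.58% of all 10255 probes tested were. HLA-B is left out of the counts against SUM149PT, where the filter on the other lines fixed its difference. For Hs578T over SUM149PT 3 of the other 8 were called (HLA-C, ERAP1, B2M), beside 10.5% of all probes, and for BT549 over SUM149PT 1 of 8 (ERAP1), beside 8.76%. In the other direction the counts were 0 of 9 for each pair in limma, also with voom weights, beside 6.26%, 9.64% and 9.4% of all probes. At an unadjusted p under 0.05 in either direction, 2 of 9, 4 of 8 and 2 of 8 passed in the 3 pairs, beside 25.9%, 33% and 30.1% of all probes, so the first and the last are near the background. Since the genes were chosen with these levels known, the counts are a description. Without SUM149PT siCtrl replicate 2 the counts against SUM149PT were 4 of 8 for Hs578T, with HLA-E added, and 3 of 8 for BT549, with B2M and HLA-E added. The shares above are from all libraries and do not apply to these counts, so the rise is not read as a result about the members.

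After siASAP1, the probes of the 9 genes did not move as a group. Of the 9 probes tested, 5 had a positive and 4 a negative Log2 FC in BT549 (median 0.47), 4 and 5 in Hs578T (median -0.17), and of 8 in SUM149PT 4 and 4 (median -0.07). The medians over all probes tested were 0.00, 0.01 and 0.09. The study's limits for a differentially expressed gene, 0.05 on the unadjusted p and 1 on the absolute Log2 FC, were met in BT549 by 2 of 9 probes in the higher direction (HLA-B, TAP1), beside 3.28% of all 9666 probes, and by 1 of 9 in the lower (HLA-E), beside 3.69%. TAP1 passed the filter in BT549 through its siASAP1 libraries, its siCtrl mean of 9.83 being under 10. Its place in the BT549 count is therefore not read as a result. In Hs578T the limits were met by 1 of 9 higher (TAP1), beside 1.34% of 9500, and by 0 lower, beside 1.44%. In SUM149PT they were met by 1 of 8 higher (ERAP1), beside 5.27% of 10078, and by 0 lower, beside 4.29%. These limits leave p-values uncorrected. In limma with all libraries kept, 0 probes of the whole table reached an adjusted p under 0.05 in any single line, with 754, 502 and 1025 at an unadjusted p under 0.05, and with voom weights 8 did in BT549, none a member, and 0 in the others. With the libraries scaled by their totals alone, the median Log2 FC of all probes moved to 0.12 in Hs578T, 0.29 in SUM149PT and 0.14 over the 3 lines, and the share of called probes that were higher moved from 48.11% to 69.47%, from 55.14% to 73.85% and from 39.01% to 60.4%, so directions are relative to the deposited scaling.

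**Figure D2:**
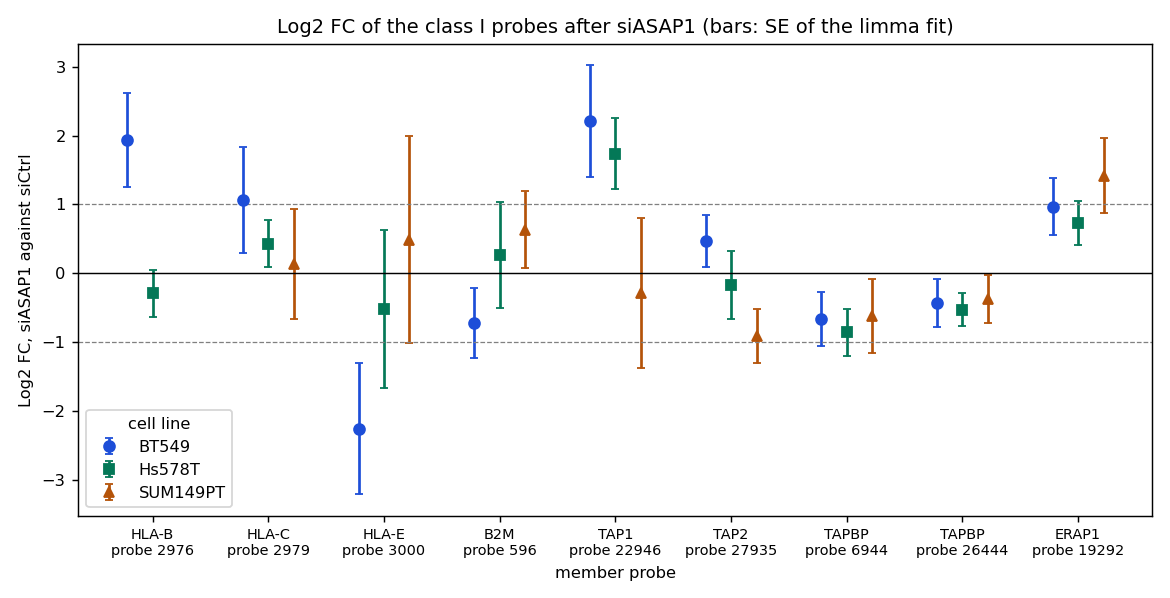
Log2 FC of siASAP1 against siCtrl (vertical axis) for each member probe in BT549 (circles), Hs578T (squares) and SUM149PT (triangles), with the SE of the limma fit as bars and dashed lines at 1 and -1. ERAP1 is above 0 and both TAPBP probes are below 0 in all 3 lines, while TAP1 is near 2 in BT549 and Hs578T and near 0 in SUM149PT. HLA-B was not tested in SUM149PT.

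ERAP1, the peptide-trimming aminopeptidase, was higher after siASAP1 in all 3 lines. In BT549 it was read at 328, 635 and 448 after siASAP1 against 303, 170 and 237 in siCtrl (Log2 FC 0.97 ± 0.42). In Hs578T the values were 230, 384 and 330 against 176, 217 and 167 (0.73 ± 0.32). In SUM149PT they were 88.6, 103 and 86.7 against 51.5, 24.6 and 30.4 (1.42 ± 0.55). The groups did not overlap in any line. In the fit over all 18 libraries, adjusted for cell line, the Log2 FC was 1.04 ± 0.22, and ERAP1 was the 1 member of 9 called higher at an adjusted p under 0.05, where 0.678% of 10475 probes were, with 0 members called lower beside 1.06%. At an unadjusted p under 0.05 in either direction, 4 of 9 passed beside 15.8% of all probes, and with voom weights the same 1 probe was called. ERAP1 lost this call under the replicate block (1.04 ± 0.25), where 0 members were called. Without SUM149PT siCtrl replicate 2 the Log2 FC was 1.20 ± 0.56 in SUM149PT, no longer within the study's limits, and 0.95 ± 0.21 over all lines, still called. The call within SUM149PT was also lost without siCtrl replicate 3 or any of the siASAP1 replicates, under upper quartile scaling (1.32 ± 0.61), without the filter (1.42 ± 0.65) and with the replicate block (1.42 ± 0.75). In BT549 the study's limits were met without siASAP1 replicate 1 (1.21 ± 0.37), without siCtrl replicate 1 (1.17 ± 0.45) and with scaling by totals (1.03 ± 0.40).

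TAP1, a subunit of the peptide transporter, was higher after siASAP1 in both mesenchymal-like lines. It was read at 37.3, 74.6 and 25.6 in BT549 after siASAP1 against 7.49, 3.77 and 18.2 in siCtrl (Log2 FC 2.21 ± 0.81). In Hs578T it was read at 83.9, 41.6 and 101 against 15.2, 26.1 and 21.7 (1.74 ± 0.51). Neither pair of groups overlapped. In SUM149PT, 2 of the siASAP1 libraries (6.62 and 6.57) lay below the siCtrl values of 22.9, 19.1 and 16.0 and the other, at 76.9, lay above them (Log2 FC -0.29 ± 1.09). The fit over the 3 lines gave 1.22 ± 0.52, which was not called. The BT549 values rest on 6 to 26 reads in a siCtrl library and 28 to 79 in a siASAP1 library. The BT549 siCtrl mean of 9.83 lay under the filter of 10. TAP1 was thus tested in BT549 through its siASAP1 libraries, which favored a higher value there. Without BT549 siASAP1 replicate 2, the library at 74.6, the Log2 FC was 1.79 ± 1.01 and outside the study's limits, as it was without siCtrl replicate 2.

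TAP2, the partner subunit, took different directions. In BT549 its values of 359, 424 and 582 after siASAP1 lay above 319, 291 and 358 in siCtrl (Log2 FC 0.47 ± 0.38). In SUM149PT its values of 202, 297 and 315 lay below 449, 510 and 556 (-0.91 ± 0.39). In Hs578T the groups overlapped, with 121, 167 and 378 against 165, 163 and 405 (-0.17 ± 0.50). None of these met the study's limits, but under upper quartile scaling TAP2 was called lower in SUM149PT (-1.02 ± 0.43). The BT549 groups were separated by the gap between 358 and 359 alone.

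Both TAPBP probes had a negative Log2 FC in every line, smaller in size than the study's limit. For TAPBP_6944 the values in Hs578T were 459, 544 and 756 after siASAP1 against 797, 881 and 1623 (Log2 FC -0.86 ± 0.34), and for TAPBP_26444 they were 875, 1099 and 889 against 1245, 1346 and 1523 (-0.53 ± 0.24). Both probes separated the Hs578T groups, and TAPBP_6944 was called lower there without siASAP1 replicate 3 or without siCtrl replicate 1 (-1.06 ± 0.39 in both). In BT549 the groups overlapped (-0.66 ± 0.39 and -0.43 ± 0.35), as they did in SUM149PT (-0.62 ± 0.54 and -0.38 ± 0.35). Over the 3 lines the Log2 FC was -0.71 ± 0.24 and -0.44 ± 0.15, and neither probe was called. Without SUM149PT siCtrl replicate 2, where TAPBP_6944 was at 329 against 915 and 1065 in the other siCtrl libraries, this probe was called lower in SUM149PT (-1.14 ± 0.38) and over the 3 lines (-0.87 ± 0.21).

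Among the heavy chains, HLA-B was higher after siASAP1 in BT549, with values of 32.9, 51.0 and 59.3 against 12.5, 18.2 and 6.31 (Log2 FC 1.94 ± 0.68), and the groups did not overlap. The call was lost without siASAP1 replicate 2 (1.87 ± 0.86), without siASAP1 replicate 3 (1.76 ± 0.79) and without siCtrl replicate 3. These values stayed below the lowest control library of Hs578T, at 205. In Hs578T, where HLA-B was high to begin with, 195, 289 and 219 after siASAP1 overlapped 205, 273 and 399 (-0.29 ± 0.34). In SUM149PT HLA-B was read at 0, 0 and 11.8 after siASAP1, the last from 9 reads, and no fold is given.

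HLA-C overlapped between treatments in all 3 lines. Its values after siASAP1 were 51.6, 55.7 and 28.3 in BT549, where siCtrl replicate 1 stood at 63.6 and the other controls at 9.43 and 13.3 (Log2 FC 1.06 ± 0.77). Without that library HLA-C met the study's limits (1.86 ± 0.70). In Hs578T the values were 553, 476 and 696 against 457, 589 and 281 (0.43 ± 0.34), and in SUM149PT 26.5, 136 and 43.4 against 77.2, 22.8 and 65.5 (0.14 ± 0.80). The SUM149PT sign turned to negative without siCtrl replicate 2, the library at 22.8. It also turned without siASAP1 replicate 2, the library at 136 (-0.51).

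HLA-E met the study's limits in the lower direction in BT549, although its groups overlapped. The siASAP1 libraries were at 180, 8.50 and 15.5 and the siCtrl libraries at 245, 125 and 100 (Log2 FC -2.26 ± 0.95). Without siASAP1 replicate 2 or 3, the libraries at 8.50 and 15.5, the Log2 FC was -1.42 ± 0.91 or -1.82 ± 1.06 and HLA-E was not called, and without replicate 1 it was -3.55 ± 0.56. The call was also lost without siCtrl replicate 1, at 245, and in a single fit of all 18 libraries (-2.26 ± 1.47). In Hs578T the values were 101, 221 and 40.5 against 270, 611 and 15.8 (-0.52 ± 1.15). Without the siCtrl library at 15.8, replicate 3, HLA-E was called lower there too (-2.06 ± 0.60). In SUM149PT the values were 59.5, 8.97 and 65.7 against 8.58, 260 and 4.80 (0.49 ± 1.51). Without SUM149PT siCtrl replicate 2 that value was 2.20 ± 1.12.

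B2M overlapped between treatments in each line. It was read at 2033, 984 and 518 in BT549 after siASAP1 against 2531, 1215 and 1503 (Log2 FC -0.72 ± 0.51). Without siASAP1 replicate 1, the library at 2033, B2M was called lower there (-1.22 ± 0.41). In Hs578T the values were 6950, 12895 and 3248 against 8432, 13899 and 1427 (0.27 ± 0.77), and in SUM149PT 546, 523 and 576 against 185, 777 and 307 (0.63 ± 0.56). In Hs578T the sign turned without siCtrl replicate 3, the library at 1427 (-0.71 ± 0.44). The 3 SUM149PT siASAP1 libraries lay close together inside the spread of the controls. Without siCtrl replicate 2, the library at 777, B2M was higher in all of them and met the study's limits (1.20 ± 0.39).

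Counted over the members, siASAP1 values did not overlap siCtrl values in the higher direction for 4 of 9 probes in BT549 (HLA-B, TAP1, TAP2, ERAP1; 7.35% of all probes), 2 of 9 in Hs578T (TAP1, ERAP1; 6.31%) and 1 of 8 in SUM149PT (ERAP1; 8.87%). In the lower direction they did not overlap for 0 of 9 (6.51%), for 2 of 9, both TAPBP probes (5.78%), and for 1 of 8, TAP2 (8.41%). TAP1 passed the filter in BT549 through its siASAP1 libraries, so its place among the 4 is not read as a result. The difference of the siASAP1 effect between cell lines was called for 0 of 9 members by limma, where 1 of 10475 probes (0.00955%) was. With voom weights it was called for 0 of 9 members and for 2 of all probes. At an unadjusted p under 0.05 in limma, 0 of 9 members passed, beside 6.22% of all probes. The lines were therefore not shown to differ in their response of TAP1, TAP2 or HLA-B.

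Some members shared part of their spread between libraries. With the mean of each line removed, B2M and HLA-E went up and down together over the 18 libraries (Pearson r = 0.84), a description over points that share lines, treatments and depth. Probes outside the members were closer to B2M, led by CD59 (0.93), MKKS, MRPL13 and MMS19 (0.92 each) and ARF4 (0.91). The likeness was therefore not particular to this pair. In the siCtrl group of Hs578T the library lowest in HLA-E (15.8) was the lowest in B2M (1427), and in that of SUM149PT the library highest in HLA-E (260) was the highest in B2M (777). The TAPBP probes had an r of 0.77, HLA-C and TAP1 of 0.61 and B2M and TAP2 of -0.70. The median over the 36 pairs of probes was -0.01, so the 9 probes had no common course. The probes whose centred values were most like the members' mean over the 18 libraries were those of MYADM (r = 0.87), FBXW11 (0.79), CASP4 (0.79), OBFC1 (0.78) and GSTT2 (0.77), none a class I gene.

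**Figure D3:**
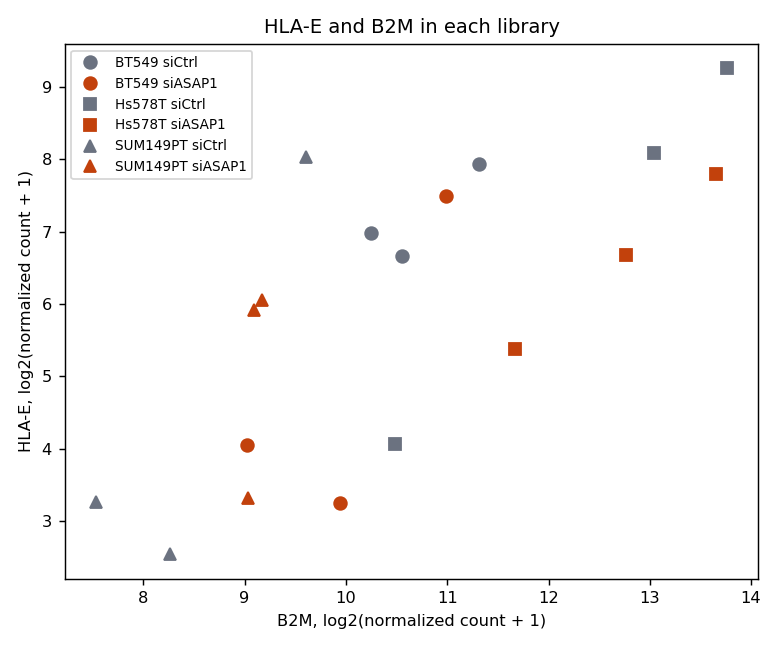
Each point is a library, with log2(normalized count + 1) of B2M on the horizontal and of HLA-E on the vertical axis, symbols for cell lines and colors for treatments (siCtrl grey, siASAP1 orange). Within Hs578T the points run from the library at 1427 for B2M and 15.8 for HLA-E to the library at 13899 and 611, and siCtrl and siASAP1 points are mixed along the run.

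The rest of the pathway was read from lists of partner genes. The 6 lists (other class I chains, peptide loading partners, immunoproteasome and activator, constitutive catalytic subunits, class I regulators, interferon receptor and response) gave 41 probes tested over the 18 libraries, of which 0 reached an adjusted p under 0.05 in limma, also with voom weights, and 8 an unadjusted p under 0.05 (7 with voom weights). Of all 10475 probes, 15.8% had an unadjusted p under 0.05 in limma. By the study's limits, 1 of 37 list probes was called higher and 2 lower in BT549, beside 3.28% and 3.69% of all probes. In Hs578T 2 of 38 were called higher, beside 1.34%, and in SUM149PT 3 of 38, beside 5.27%. Between control libraries, 3 of 37 were called higher and 1 lower in Hs578T than in BT549, 12 and 1 in Hs578T than in SUM149PT, and 7 and 2 in BT549 than in SUM149PT, to be read against the shares of all probes given above. The counts against SUM149PT include probes that passed the filter through the other lines alone, such as NLRC5. When SUM149PT siCtrl replicate 2 was left out, 6 of 37 were higher and 2 lower in SUM149PT after siASAP1, 0 of 39 were called over the lines, and against control SUM149PT cells 12 of 38 were higher and 3 lower in Hs578T and 12 higher and 4 lower in BT549. In this setting 2325 of all probes were called in SUM149PT after siASAP1, in place of 963. These counts are therefore not comparable with the shares above. None of the 15 class II probes passed the filter.

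**Figure D4:**
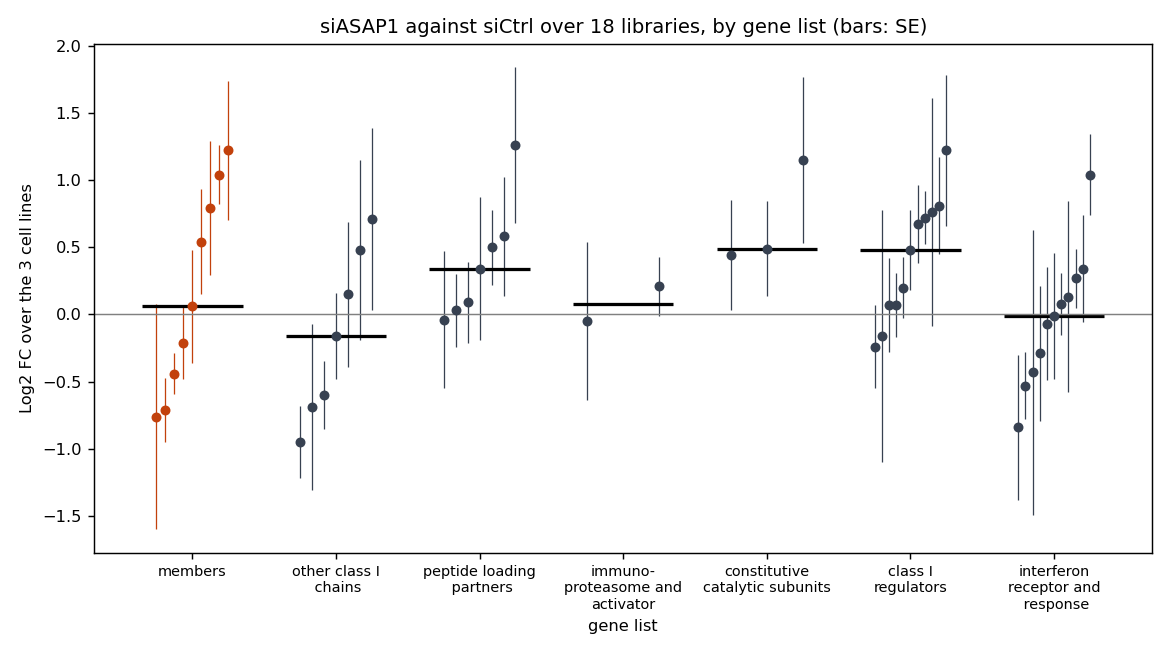
Log2 FC of siASAP1 against siCtrl over the 18 libraries (vertical axis) for the member probes (orange) and the probes of the 6 partner lists (dark grey), with SE bars and the median of each list as a black line. The medians are 0.06 for the members, 0.48 for the class I regulators and -0.01 for the interferon receptor and response genes, and the probes of each list spread to both sides of 0 except the 3 constitutive catalytic subunits.

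Among the other class I chains, the MHC-like MR1, which presents vitamin B metabolites to MAIT cells, met the study's limits in the lower direction in BT549 by its probe MR1_15135, with 166, 138 and 60.2 after siASAP1 against 601, 320 and 367 (Log2 FC -1.88 ± 0.49, limma adjusted p = 0.42). Over the 3 lines it was -0.95 ± 0.27 (adjusted p = 0.081), with groups that did not overlap in BT549 and Hs578T, and the second probe MR1_28824 was -0.60 ± 0.25 (adjusted p = 0.23).

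Of the peptide loading partners, 7 probes had a median Log2 FC of 0.34 over the 3 lines, against 0.02 for all probes. HM13, the signal peptide peptidase that releases the peptides bound by HLA-E, met the study's limits in SUM149PT, with 146, 171 and 271 after siASAP1 against 83.0, 89.3 and 33.6 (Log2 FC 1.57 ± 0.57, adjusted p = 0.43; 1.82 ± 0.57 and 0.11 without siCtrl replicate 2). In control cells ERAP2, the close relative of ERAP1, was higher in Hs578T than in BT549, at 1294, 1595 and 1021 in Hs578T siCtrl libraries and 66.1, 182 and 171 in BT549 (Log2 FC 3.32 ± 0.69, adjusted p = 0.0093).

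The immunoproteasome replaces the constitutive catalytic subunits under interferon and has its gene PSMB9 beside TAP1. PSMB9 was read at 762, 749 and 510 in BT549 after siASAP1 against 765, 494 and 352, at 809, 1539 and 689 in Hs578T against 937, 1190 and 1073, and at 320, 537 and 243 in SUM149PT against 290, 209 and 299. The groups overlapped in each line, also where TAP1 did not. PSME2, a subunit of the proteasome activator, was the other list member past the filter (2 of 5 genes), with a Log2 FC of -0.05 ± 0.59 over the lines. The 3 constitutive catalytic subunits had a median Log2 FC of 0.49 over the lines, and 0 of 3 were called. PSMB6 was read at 140, 159 and 106 in BT549 after siASAP1 against 213, 58.5 and 150, and PSMB7, another catalytic subunit, had the largest Log2 FC of the 3 over the lines (1.15 ± 0.62, adjusted p = 0.39).

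The class I regulators had positive Log2 FC values for 9 of 11 probes over the 3 lines (median 0.48) and 0 of 11 were called. STAT2, which carries interferon signals together with IRF9, met the study's limits in SUM149PT, at 943, 947 and 720 after siASAP1 against 503, 272 and 556 (Log2 FC 1.02 ± 0.42, adjusted p = 0.47), and did not meet them without siCtrl replicate 2 (0.71 ± 0.34, adjusted p = 0.23). In control cells it was higher in Hs578T than in BT549 (1.33 ± 0.36, adjusted p = 0.037). IRF1, an activator of class I and TAP1 promoters that was named after its values were seen, had a Log2 FC of 0.72 ± 0.20 over the lines (adjusted p = 0.072), with groups that overlapped in Hs578T alone, and of 0.61 ± 0.19 without SUM149PT siCtrl replicate 2 (adjusted p = 0.11). NLRC5, the class I transactivator, was 1.22 ± 0.56 (adjusted p = 0.29). In control cells NLRC5 was read at 74.3, 64.5 and 83.7 in Hs578T, 26.2, 66.7 and 46.3 in BT549 and 0, 23.7 and 1.60 in SUM149PT (Log2 FC 4.22 ± 1.04 for Hs578T over SUM149PT, adjusted p = 0.017, and 3.47 ± 1.04 for BT549 over SUM149PT, adjusted p = 0.043). Leaving out SUM149PT siCtrl replicate 2, the library at 23.7, these were 5.53 ± 0.67 and 4.78 ± 0.67. NLRC5 passed the filter in these comparisons through its level in the other lines, so a difference was bound to appear. Without that library NLRC5 also met the study's limits after siASAP1 in SUM149PT (4.42 ± 1.26). With controls of 0 and 1.60 it passed the filter there through the siASAP1 libraries alone. NLRC5 was thus lowest in SUM149PT, as were HLA-B, B2M and ERAP1. HLA-C and TAP1 were not lower there than in BT549, and TAP2 was highest there. A part of NLRC5 in these levels was not tested.

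Interferon receptor and response genes had a median Log2 FC of -0.01 over the 3 lines. GBP1, an interferon-induced guanylate-binding protein, met the study's limits in Hs578T (1117, 1027 and 1468 against 506, 441 and 510; Log2 FC 1.29 ± 0.26, adjusted p = 0.71) and in SUM149PT (95.3, 183 and 63.1 against 25.7, 20.0 and 25.6; 2.08 ± 0.61, adjusted p = 0.38, and 1.97 ± 0.65 and 0.11 without siCtrl replicate 2). In BT549, where the siCtrl libraries of 1515, 978 and 990 were already the highest, it was at 1072, 1060 and 758 (-0.26 ± 0.36), and the difference between lines was not called (adjusted p = 0.20). Its relative GBP2 met the limits in Hs578T (1.05 ± 0.41, adjusted p = 0.92). In BT549 IFIT3 met them in the higher direction (1.57 ± 0.63, adjusted p = 0.61) and the interferon receptor chain IFNAR2 in the lower (-1.12 ± 0.47, adjusted p = 0.63). In control cells GBP1 was 4.30 ± 0.34 higher on the log2 scale in Hs578T than in SUM149PT (adjusted p = 1.5e-05) and 5.53 ± 0.34 higher in BT549 than in SUM149PT (adjusted p = 5.3e-06). IFI6, another interferon-induced gene, was 5.31 ± 0.71 higher in Hs578T than in SUM149PT. IFI6 did not pass the filter within SUM149PT when siCtrl replicate 2 was left out. It entered this comparison through its level in the other lines, so a difference was bound to appear.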

How the data were processed

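The authors transfected the cells in 96-well plates, lysed them after 72 h, had TempO-Seq run by its provider and divided the counts of each library by a DESeq2 size factor. The submitters' processing notes name bcl2fastq, Bowtie and DESeq2, and the genome build is not given in the sources used here. The deposited table holds log2 values of the normalized count plus 1. Undoing the log2 gave whole reads for 100% of values (tolerance 0.05 reads). Groups and replicate numbers came from the labels. The members and gene lists were chosen with earlier results of these data known.

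Linear models of the log2 values were fitted by limma 3.58.1 (R 4.3.3; lmFit, then eBayes with a trend), leaving out probes whose normalized counts averaged under 10 over the libraries of that fit. Each line was fitted on its 6 libraries. A fit of 18 libraries had the cell line as a covariate, another added the interaction, and the siCtrl libraries were compared between lines. P-values were adjusted by Benjamini-Hochberg over all probes tested and are not given for members. The recovered reads were used for voom weights and for other scalings, and edgeR was not run on them. Genes outside the members were named where they met the limits of a comparison, at most 3 for each pair of lines, or, for a list without such a gene, by their 2 highest means. Single genes of these lists that are not reported here are counted in the list totals. Same-numbered siCtrl and siASAP1 libraries had correlated deviations from their group means of -0.658 to 0.422, so the numbers were not used as pairs. The sign differed by line, and in Hs578T all correlations were positive. The alternatives were 2 other scalings, other filters, a pseudocount of 0.1, the replicate block, a single fit, summed probes, each library left out and, added after seeing the data, voom weights. The fits were tested on simulated data. Likeness is Pearson's r of line-centred log2 values. Promoters and names came from RefSeq and spans from GENCODE. Figures were drawn with matplotlib 3.10.9 in Python 3.11.15.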

Additional observations from a re-analysis of the deposited data

Results flagged for a closer look

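TAP2 (TAP2_27935) was flagged because its siASAP1 libraries lay on opposite sides of the siCtrl libraries in different lines. All 3 were higher in BT549 (Log2 FC 0.47) and all 3 were lower in SUM149PT (Log2 FC -0.91). It was singled out by these same values, so no p-value is given, and the difference between the lines was not called for this probe.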

How the results depend on the processing

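A minimum mean normalized count of 50 removes TAP1 from the test in each line, and HLA-B and HLA-C from the test in BT549. With it, the members called after siASAP1 were 1 in place of 3 in BT549 and 0 in place of 1 in Hs578T. Without a filter, the count in SUM149PT was 0 in place of 1. The replicate numbers were not treated as pairs, since same-numbered libraries correlated between -0.658 and 0.422. With the replicate block, the members called were 0 in place of 1 (ERAP1) in SUM149PT and over the 18 libraries, the other member counts stayed within 1.5 times, and the calls over all probes were 351 in place of 963 in SUM149PT, 435 in place of 264 in Hs578T, 34 in place of 182 over the 18 libraries and 0 in place of 1 for the difference between lines. Leaving out 1 library at a time, the number of members called lay between 0 and 5 for BT549, between 1 and 2 for Hs578T, between 0 and 2 for SUM149PT, between 1 and 2 over the 18 libraries, between 2 and 4 for control BT549 against SUM149PT and between 3 and 5 for control Hs578T against SUM149PT, HLA-B included. The highest counts for SUM149PT, over the 18 libraries and for control BT549 against SUM149PT came without SUM149PT siCtrl replicate 2, and the cause was not tested. Over all probes, leaving out a library gave between 325 (siASAP1 replicate 3) and 2169 (siASAP1 replicate 1) calls for BT549 (674 with all), between 158 (siASAP1 replicate 1) and 634 (siCtrl replicate 3) for Hs578T (264) and between 501 (siCtrl replicate 1) and 2325 (siCtrl replicate 2) for SUM149PT (963). Other settings moved them to 430 (no filter) and 142 (minimum of 50) in Hs578T, to 1560 (1 fit of 18 libraries) in SUM149PT, to 111 (no filter) over the 18 libraries, and for the difference between lines from 1 to 19 without a filter, 22 with a pseudocount of 0.1 2 with a minimum of 50 or voom weights, 9 without SUM149PT siASAP1 replicate 2 and 26 without SUM149PT siCtrl replicate 2. With a pseudocount of 0.1, HLA-B in Hs578T and in BT549 stood 10.04 and 5.41 above SUM149PT on the log2 scale, in place of 7.64 and 3.13. Scaling by totals moved the median of all probes to -0.21 for control Hs578T against BT549 and to 0.20 for BT549 against SUM149PT. No called member changed sign under an alternative. With a few reads for HLA-F, for TAP2_22949 and for HLA-B in SUM149PT, differences in these probes were not detectable at this depth.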
